A study of Mus musculus with 28 samples.

Results

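ATP-binding cassette (ABC) efflux transporters are membrane pumps that use ATP to move drugs, bile salts, lipids and conjugated metabolites out of cells. The 9 described here, Abcb1a, Abcb1b, Abcb4, Abcb11, Abcc2, Abcc3, Abcc4, Abcc6 and Abcg2, were taken by gene symbol from a table of 24197 mouse genes. All 9 were found, each as 1 row. Their nuclear transcripts were followed in the liver of CD-1 mice given TCPOBOP, an agonist of the nuclear receptor CAR (constitutive androstane receptor, gene Nr1i3).

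Polyadenylated nuclear RNA from 28 livers of strain Crl:CD1(ICR), 1 per library, fell into 8 groups of 3 or 4 mice. In 4 groups of males and females aged 9 to 10 weeks, 4 mice per sex had received TCPOBOP at 3 mg/kg, and 3 per sex had received the vehicle alone, over 2 weeks, in little corn oil (4 µl/g body weight, with 10% DMSO). Males of 15 to 16 weeks had received, over 8 weeks, TCPOBOP at 3 mg/kg and then weekly doses of 1 mg/kg in more oil (20 µl/g, with 2% DMSO; 3 mice), or that vehicle alone (3 mice). These regimens are called low oil and high oil. The low-oil TCPOBOP males of 8 weeks (4 mice, 15 to 16 weeks old) had received later doses of 1.5 mg/kg. Their 4 vehicle controls had been treated for 4 to 8 weeks, and 2 of them were 11 to 12 weeks old. They are the vehicle group of the low-oil 8-week comparison and are called low-oil males with it. All groups, controls included, carried corn oil and DMSO. The regimens therefore differed in oil volume, DMSO content and later dose together. All high-oil libraries carried one set code and the low-oil libraries of the long treatment another, so set and regimen cannot be told apart between those groups. The 2-week low-oil libraries carried the code of the high-oil set. The set code of 1 female TCPOBOP library differs from both in its label, while the header of the table puts it with the other 2-week libraries.

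The liver moves bile acids, conjugates and lipids in 2 directions. Pumps of the canalicular membrane deliver them into bile: Abcb11 is the bile salt export pump, Abcb4 flips phosphatidylcholine outwards, Abcc2 (MRP2) exports conjugates such as bilirubin glucuronide, and Abcg2 (BCRP) and the P-glycoproteins Abcb1a and Abcb1b export drugs. Pumps of the basolateral membrane return material to blood: Abcc3 (MRP3) and Abcc4 (MRP4) carry glucuronides, sulfates and bile acids, and Abcc6 is the hepatocyte pump whose loss causes ectopic mineralisation. CAR is a sensor of foreign chemicals that switches on Cyp2b10 and other detoxification genes, and activators of CAR and of the oxidative stress factor Nrf2 (gene Nfe2l2) are known to induce several MRP genes in rodent liver.

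Promoter windows are shown for Abcc4 and Abcb1a, which were called most often with TCPOBOP, for Abcb1b, the sister gene of Abcb1a that was not called, and for Abcc2, which differed between regimens. Each runs from 250 bases before to 50 after an annotated start, read from RefSeq on GRCm38.p6, 5′ to 3′ on the gene's strand. The expression table was made on mm9, and no coordinate was carried between the builds. RefSeq windows were held for 7 members, 10 windows in all; Abcc3 and Abcc6 are named only. Capitals mark matches, on either strand and without overlap, to the antioxidant response core TGACNNNGC and the nuclear receptor half-sites AGGTCA and AGTTCA.
Abcb1a, chr5:8566841-8567140, plus strand: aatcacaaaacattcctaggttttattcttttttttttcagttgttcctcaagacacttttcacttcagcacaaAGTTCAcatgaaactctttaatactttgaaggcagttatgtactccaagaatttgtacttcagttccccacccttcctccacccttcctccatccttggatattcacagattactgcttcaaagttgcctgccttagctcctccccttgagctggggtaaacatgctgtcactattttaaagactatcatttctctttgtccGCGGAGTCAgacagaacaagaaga
Abcb1b, chr5:8797897-8798196, plus strand: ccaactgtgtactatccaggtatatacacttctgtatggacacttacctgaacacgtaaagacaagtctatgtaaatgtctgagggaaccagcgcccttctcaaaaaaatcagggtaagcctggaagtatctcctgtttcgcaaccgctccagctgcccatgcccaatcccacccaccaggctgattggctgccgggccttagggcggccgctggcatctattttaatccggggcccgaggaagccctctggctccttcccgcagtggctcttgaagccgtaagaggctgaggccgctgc
Abcc4, chr14:118706170-118706469, minus strand: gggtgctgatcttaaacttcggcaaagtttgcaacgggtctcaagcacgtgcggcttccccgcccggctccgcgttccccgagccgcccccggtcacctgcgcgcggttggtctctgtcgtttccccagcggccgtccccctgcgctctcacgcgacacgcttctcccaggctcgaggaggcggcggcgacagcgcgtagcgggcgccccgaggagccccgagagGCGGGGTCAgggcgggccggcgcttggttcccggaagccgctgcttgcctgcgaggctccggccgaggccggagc
Abcc4, alternative start, chr14:118676882-118677181, minus strand: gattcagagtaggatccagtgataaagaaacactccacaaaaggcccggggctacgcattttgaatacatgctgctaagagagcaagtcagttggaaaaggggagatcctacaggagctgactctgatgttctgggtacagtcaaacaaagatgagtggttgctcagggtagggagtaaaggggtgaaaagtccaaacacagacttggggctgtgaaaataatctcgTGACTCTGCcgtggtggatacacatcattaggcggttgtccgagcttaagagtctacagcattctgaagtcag
Abcc2, chr19:43782058-43782357, plus strand: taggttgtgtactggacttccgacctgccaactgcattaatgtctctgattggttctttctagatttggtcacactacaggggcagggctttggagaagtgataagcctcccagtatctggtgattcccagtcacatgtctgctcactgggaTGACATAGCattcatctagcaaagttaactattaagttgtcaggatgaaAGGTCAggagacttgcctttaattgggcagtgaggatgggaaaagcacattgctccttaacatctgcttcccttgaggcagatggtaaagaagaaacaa

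The antioxidant core was found in 4 of the 10 windows, against 12.4% of all 32851 mouse promoter windows of this length. Both Abcc4 windows held it, 25 to 17 and 23 to 15 bases before their starts. The Abcc2 window held it 98 to 90 bases before the start. The Abcb1a window held it 27 to 35 bases after the annotated start, but the last 35 bases of that window were in no GENCODE M21 transcript of Abcb1a, unlike those of the other windows shown. The Abcb1b window held none of the 3 capitalised motifs. AGGTCA was in 4 windows (16.3% of all windows) and AGTTCA in 3 (14.0%). The dioxin response core GCGTG was in 4 (32.4%). A direct repeat of half-sites spaced by 4 bases, the arrangement bound by CAR with RXR, was in none of the 10 and in 0.0274% of all windows. These are letter matches only, and their absence from a window says nothing about binding.

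Each group had 1 pooled FPKM value (fragments scaled to gene length and library size) per gene from the authors. No library values, SD or depth could therefore be given. Levels of different genes are set side by side per length. How introns were treated is unknown, so such comparisons between genes are not secured. Changes and adjusted p-values are the authors', from edgeR, and a gene counted as called at an adjusted p under 0.05. The labels do not say that libraries of a group came from separate experiments, so these p-values measure the spread between those livers. In the authors' deposited table Cyp2b10 rose in all 4 TCPOBOP comparisons (from between 1.72 and 7.25 FPKM to between 238 and 499 FPKM), as did all 8 listed CAR targets. Summed FPKM of the hepatocyte markers (5523 to 15855) exceeded those of endothelial (91.2 to 168.6), Kupffer (79.8 to 166.6; Adgre1 had no matching symbol), stellate (54.9 to 107.4), lymphocyte and blood (56.0 to 104.9) and cholangiocyte markers (17.1 to 33.8), and no marker in the table was at 0 in any group.

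The members spanned a wide range of levels. By mean pooled FPKM over the 8 groups, Abcc6 (65.5), Abcb11 (62.4), Abcc3 (49.0), Abcc2 (35.2), Abcb4 (24.7) and Abcg2 (10.8) made up the upper 6, all at least 1 FPKM in every group. Abcc6 ranked 411 and Abcb11 433 among all genes. The other 3, Abcc4 (2.52), Abcb1a (0.550) and Abcb1b (0.0887), were under 1 FPKM in every vehicle group. With no spread between livers to set beside them, neighbours in this order such as Abcc6 and Abcb11 cannot be called different. The least variable member was Abcb11, whose highest group was 1.46 times its lowest, and the most variable was Abcc4 at 25.7 times.

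**Figure D1:**
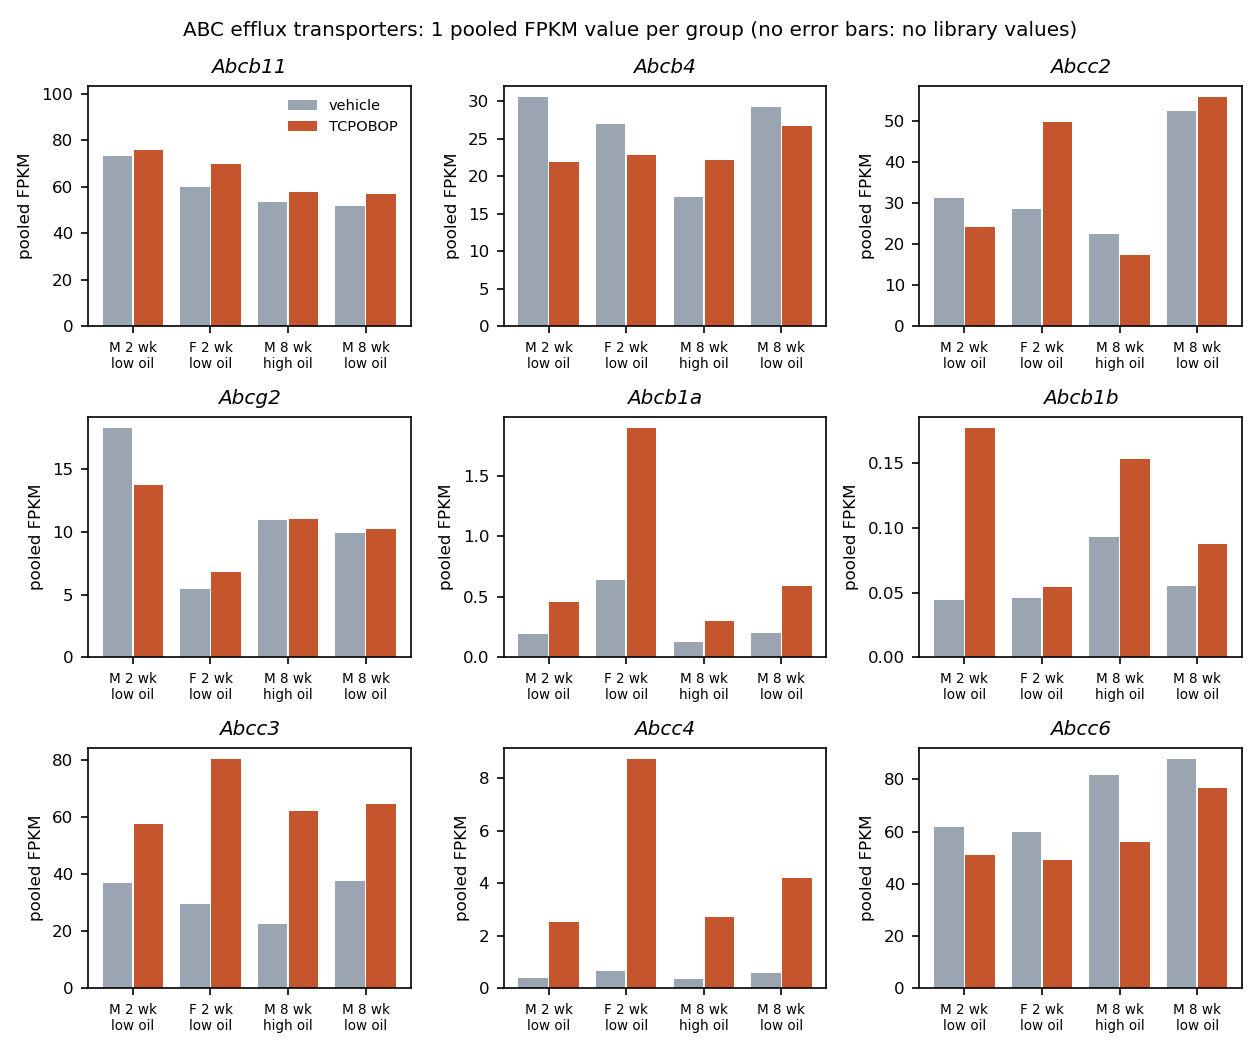
Pooled FPKM (linear axis from 0, different for each gene) of the 9 transporters in the 8 groups, grey bars for vehicle and orange bars for TCPOBOP; M and F are males and females, and each bar is 1 pooled value without error. Abcc4 and Abcc3 were higher in every TCPOBOP group than in any vehicle group, while Abcc2 was highest in both groups of the low-oil 8-week comparison.

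In the authors' deposited table TCPOBOP raised 3 of the 9 transporters in at least 1 comparison and lowered none. The share of all genes called in at least 1 of the 4 TCPOBOP comparisons was not counted. Abcc4 was called higher in all 4 comparisons, Abcb1a in 3 and Abcc3 in 2. In 2-week males 1 of 9 was higher, where 2.52% of all genes were called higher and 1.78% lower. In 2-week females 3 of 9 were higher (background 3.45% higher and 3.18% lower), in high-oil 8-week males 3 (4.08% and 1.88%), and in low-oil 8-week males 2 (3.72% and 2.81%). These shares include 4917 genes listed at 0 in all groups. Among genes of at least 1 FPKM in the higher group, 7.31%, 11.6%, 11.2% and 10.9% were called in either direction. The matching member counts were 1 of 7, 3 of 8, 2 of 7 and 1 of 7. The median log2 change of all 9 members was -0.03, 0.31, 0.40 and 0.03 in the same order. The median over all genes, with those listed at 0, was 0 each time. For members of at least 1 FPKM in the higher group the medians were -0.348, 0.556, 0.162 and -0.020. All genes of at least 1 FPKM had medians of -0.007, 0.013, -0.045 and -0.015.

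**Figure D2:**
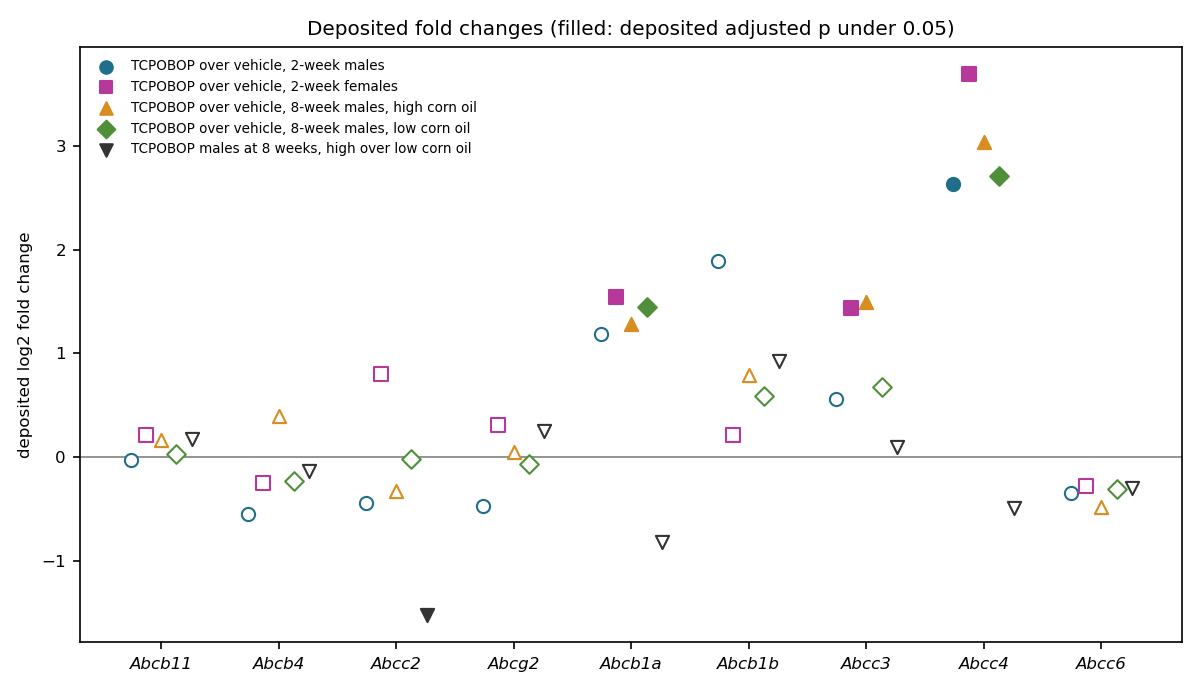
Log2 fold changes of the 9 transporters from the authors' deposited table in the 4 TCPOBOP comparisons and between the 2 TCPOBOP groups of 8-week males; filled symbols have an adjusted p under 0.05. Abcc4 stands highest in every TCPOBOP comparison, and Abcc2 between regimens is the only filled symbol below 0.

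Abcc4, the basolateral MRP4 pump for cyclic nucleotides, sulfated bile acids and drugs, had the largest called change of the 9. In vehicle livers its pooled level was 0.388 FPKM in 2-week males, 0.670 in 2-week females, 0.340 in high-oil males and 0.599 in low-oil males. With TCPOBOP the levels were 2.53, 8.71, 2.71 and 4.21 FPKM in the same order. The 4 TCPOBOP groups lay above all 4 vehicle groups without overlap, as did those of 8.08% of the 10477 genes with a mean of at least 1 FPKM. By the authors' deposited table Abcc4 rose 6.18-fold in 2-week males (adjusted p = 3.16e-21) and 12.9-fold in 2-week females (adjusted p = 5.84e-31). In the same authors' deposited table it rose 8.19-fold in high-oil males (adjusted p = 7.16e-22) and 6.55-fold in low-oil males (adjusted p = 1.84e-32).

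Among the genes that TCPOBOP raised, Abcc4 placed 114 of 610 genes called higher in 2-week males, 78 of 836 in females, 152 of 987 in high-oil males and 181 of 900 in low-oil males, counted from the largest fold in the authors' deposited table. Females reached the highest level, 3.45 times that of 2-week TCPOBOP males. Whether the response differed between sexes was not tested. The whole liver was sampled, so more cells of a type and more RNA per cell cannot be told apart, here and for the other members. Mir6391, a microRNA gene within Abcc4, had at most 0.141 FPKM and was never called.

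Abcb1a and Abcb1b are the 2 mouse genes for P-glycoprotein, the broad drug efflux pump that is a single gene in humans; in mice they lie next to each other and to Abcb4 on chromosome 5. Only Abcb1a was called. Its pooled level in vehicle and TCPOBOP livers was 0.190 and 0.457 FPKM in 2-week males, 0.643 and 1.89 in 2-week females, 0.127 and 0.303 in high-oil males, and 0.203 and 0.589 in low-oil males. Within each comparison the TCPOBOP group was higher, but vehicle females were above the TCPOBOP groups of all 3 male comparisons. The authors' deposited table gave a rise of 2.91-fold in females (adjusted p = 9.91e-10), 2.44-fold in high-oil males (adjusted p = 0.0380) and 2.73-fold in low-oil males (adjusted p = 0.00154). For 2-week males the authors' deposited table gave 2.28-fold with an adjusted p of 0.428, so that value did not pass. Of the 3 calls, the one in females had a group at 1 FPKM or more, and the high-oil call did not pass at an adjusted p under 0.01.

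Abcb1b was the lowest of the 9 in every group. Vehicle and TCPOBOP levels were 0.0445 and 0.177 FPKM in 2-week males, 0.0459 and 0.0542 in females, 0.0926 and 0.153 in high-oil males, and 0.0547 and 0.0875 in low-oil males. In the authors' deposited table its log2 changes of 1.89, 0.21, 0.79 and 0.59 had adjusted p-values of 0.129, 1, 0.836 and 0.871, and none passed. With levels this low, an adjusted p above the threshold does not show that Abcb1b did not change. The pair also share sequence: 16.3% of the 50-base words of Abcb1a transcripts occur in Abcb1b and 11.1% the other way, in GENCODE M21 transcripts. The reads were of nuclear RNA and were counted over gene bodies. How far shared words affected the split of reads between the pair was not tested and remains uncertain. The corresponding shares with Abcb4 were 2.33% of Abcb1a words and 0.82% of Abcb1b words, and the remaining 6 members shared none.

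Abcb1a also overlaps Rundc3b on the opposite strand, and the sources used here do not say whether counting used strand. Rundc3b was at 0.0311 and 0.0619 FPKM (vehicle and TCPOBOP) in 2-week males, 0.0947 and 0.217 in females, 0.0211 and 0.0484 in high-oil males, and 0.0315 and 0.0329 in low-oil males. It was called in no comparison of the authors' deposited table (adjusted p from 0.127 to 1). Endothelium carries P-glycoprotein too: the 8 endothelial markers summed to 111.1 and 118.6 FPKM in vehicle and TCPOBOP 2-week males, 154.9 and 168.6 in females, 100.6 and 91.2 in high-oil males, and 147.3 and 150.3 in low-oil males. Of these 8, Lyve1 in females was the only one called higher. The Kupffer markers summed to 79.8 and 115.8, 131.5 and 166.6, 105.4 and 116.0, and 103.3 and 131.4 FPKM in the same order, none of them called, and the part of either cell type in the Abcb1a values was not tested.

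Abcc3, the basolateral MRP3 pump for glucuronides, was abundant in vehicle livers and was called higher with TCPOBOP in females and in high-oil males. Its vehicle levels were 37.1 FPKM in 2-week males, 29.4 in females, 22.7 in high-oil males and 37.7 in low-oil males. Its TCPOBOP levels were 57.7, 80.3, 62.1 and 64.7 FPKM, each above every vehicle group. The authors' deposited table gave log2 changes of 1.44 in females (adjusted p = 1.00e-08) and 1.50 in high-oil males (adjusted p = 3.77e-07). The values for 2-week males (0.56, adjusted p = 0.274) and low-oil males (0.67, adjusted p = 0.0613) in the authors' deposited table did not pass. The TCPOBOP levels of the males lay between 57.7 and 64.7 FPKM, and the high-oil vehicle group was the lowest of the 8. Whether the responses differed between comparisons was not tested.

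Abcc6, the remaining basolateral pump and the member with the highest mean over the 8 groups, had lower pooled levels with TCPOBOP in each comparison, none of them called. Vehicle and TCPOBOP levels were 61.7 and 51.0 FPKM in 2-week males, 59.7 and 49.3 in females, 81.5 and 56.2 in high-oil males, and 87.7 and 76.8 in low-oil males. The 2 treatments overlapped over the groups, with low-oil TCPOBOP males above both 2-week vehicle groups. Its log2 changes by the authors' deposited table ran from -0.49 to -0.28 and its adjusted p-values from 0.404 to 0.664.

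Of the canalicular pumps other than P-glycoprotein, Abcb11, Abcb4, Abcc2 and Abcg2, none was called in any TCPOBOP comparison. Abcb11, the bile salt pump, had 51.7 to 73.5 FPKM in vehicle groups and 56.8 to 75.8 in TCPOBOP groups. Its log2 changes in the authors' deposited table ran from -0.03 to 0.21 (adjusted p from 0.836 to 1). Abcb4, the phospholipid flippase, had 17.2 to 30.5 FPKM in vehicle groups and 21.9 to 26.8 with TCPOBOP, a range inside that of the vehicle groups. The authors' deposited table gave it log2 changes from -0.55 in 2-week males (adjusted p = 0.181) to 0.40 in high-oil males (adjusted p = 0.649).

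Abcc2, the canalicular MRP2 pump, was called in no TCPOBOP comparison, and its pooled level spanned 3.20-fold over the 8 groups. Vehicle and TCPOBOP levels were 31.3 and 24.2 FPKM in 2-week males, 28.5 and 49.7 in females, 22.4 and 17.4 in high-oil males, and 52.6 and 55.8 in low-oil males. Both high-oil groups were the lowest of the 8 and the low-oil groups of the 8-week comparison the highest. Those highest groups make up a whole library set, and the share of all genes with this order was not counted. In the authors' deposited table the log2 changes with TCPOBOP were -0.45, 0.80, -0.33 and -0.02, and the female value came nearest to the threshold (adjusted p = 0.0645). The ratio of Abcc3 to Abcc2, basolateral to canalicular, was 1.18 and 2.38 (vehicle and TCPOBOP) in 2-week males, 1.03 and 1.61 in females, 1.01 and 3.57 in high-oil males, and 0.716 and 1.16 in low-oil males. The ratio of these pooled FPKM was thus higher with TCPOBOP in each comparison, without a test.

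Abcg2, the BCRP pump for drugs and urate, was lower in females than in males with either treatment. Levels in vehicle and TCPOBOP livers were 18.3 and 13.8 FPKM in 2-week males, 5.46 and 6.85 in females, 11.0 and 11.1 in high-oil males, and 9.95 and 10.2 in low-oil males. Both female groups were below all 6 male groups, but the share of all genes with this order was not counted. The male groups ranged from 9.95 to 18.3 FPKM and differed among themselves in regimen, duration and age. By the authors' deposited table, its log2 changes were -0.47, 0.31, 0.05 and -0.06, with adjusted p-values from 0.358 to 1, and none passed.

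Between sexes, the vehicle groups at 2 weeks could be compared as pooled levels only, with no test. Abcg2 was 3.35 times higher in males, and Abcb1a was 3.38 times higher in females. Every marker list also summed higher in vehicle females, among them endothelium (154.9 against 111.1 FPKM) and Kupffer (131.5 against 79.8 FPKM). Their part in the Abcb1a value was not tested. Of the 6 members with at least 1 FPKM in the higher group, 1 (Abcg2) differed by at least 2-fold, against 4.01% of 10691 such genes. With TCPOBOP, Abcg2 was 2.01 times higher in males, while Abcb1a, Abcc4 and Abcc2 were 4.14, 3.45 and 2.05 times higher in females. These were 4 of 8 members of at least 1 FPKM in the higher group past 2-fold, against 4.61% of 10687 such genes. Abcb1b, under 1 FPKM, was 3.26 times higher in TCPOBOP males than in females, opposite to Abcb1a.

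The 2 TCPOBOP groups of 8-week males, high over low oil, were the one further comparison in the authors' deposited table, and its libraries are those of the 8-week comparisons above. There Abcc2 was 2.88-fold lower in the high-oil group (adjusted p = 2.40e-09). It was 1 of 9 members called, where 3.6% of all genes were called higher and 3.81% lower. Of the 7 members of at least 1 FPKM, 1 was called, a share near the 13.9% of such genes called. The authors' deposited table also called 6 of the 40 other ABC genes lower in this comparison (Abca5, Abca6, Abcc9, Abcd2, Abcg1 and Abcg8) and none higher, and it called the copper exporter Atp7b lower. Without TCPOBOP the same direction was seen: vehicle levels were 22.4 FPKM in high-oil and 52.6 in low-oil males, a 2.35-fold untested difference. Abcc2 was the 1 of 6 members of at least 1 FPKM in the higher group to differ by 2-fold or more between those vehicles. The share was 4.54% of 10631 such genes. Abcc2 also differed within low oil. Its pooled level in males of the long treatment was 2.31 times that of 2-week males with TCPOBOP and 1.68 times with vehicle. These ratios cross library set, duration and age together, and with TCPOBOP the later dose too. With TCPOBOP, 1 of 7 members of at least 1 FPKM differed by 2-fold or more, against 3.86% of 10763 such genes. With vehicle 0 of 6 members did, against 6.17% of 10615 such genes. Within one library set, 2-week low-oil vehicle males stood at 31.3 FPKM and 8-week high-oil vehicle males at 22.4. Those 2 groups differed in duration and age as well as in regimen. None of these differences was tested. Abcb1a (log2 change -0.82, adjusted p = 0.0899) and Abcc4 (-0.50, adjusted p = 0.134) did not pass in the authors' deposited table, nor did the other 6 members.

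Other differences moved with the regimens. The authors' deposited table called 4 of 8 endothelial markers (Pecam1, Cdh5, Kdr and Tek) lower in the high-oil TCPOBOP group, and their list summed to 91.2 FPKM against 150.3. It also called 3 of 7 hepatocyte markers (Apoa1, Serpina1c and Fgb) higher, 2 of 8 stellate markers (Col1a1 and Rgs5) lower, and 2 of 8 lymphocyte and blood markers (Hba-a1 and Hbb-b1) higher. With vehicle, high against low oil, the hepatocyte markers summed to 9643 and 5523 FPKM. The sums were 100.6 and 147.3 for endothelial markers and 54.9 and 73.9 for stellate markers. They were 105.4 and 103.3 for Kupffer, 63.9 and 56.0 for lymphocyte and blood, and 18.7 and 17.1 for cholangiocyte markers. The part of cell makeup in the Abcc2 values was not tested, with vehicle or with TCPOBOP. The later dose, oil volume, DMSO content and library set differed together and cannot be told apart. Between the vehicle groups, duration and age differed in part too, as 2 of the 4 low-oil mice were 11 to 12 weeks old.

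**Figure D3:**
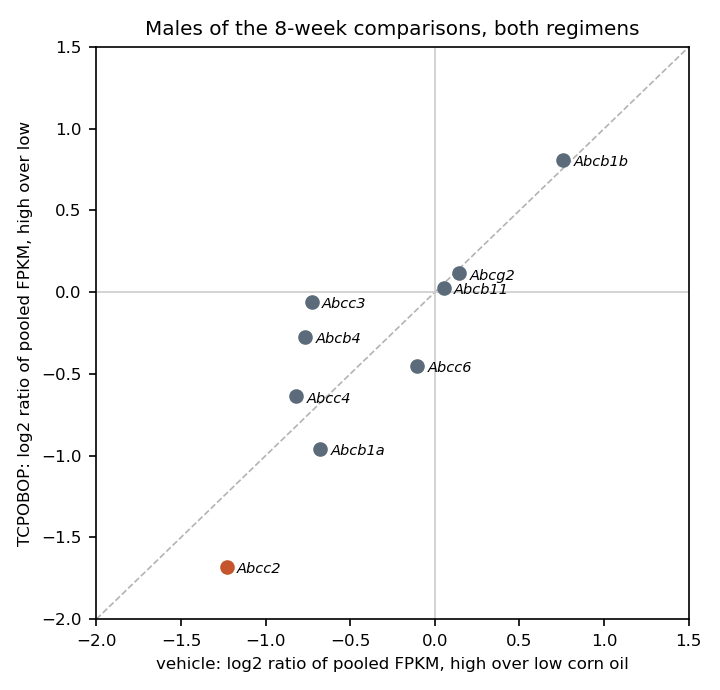
Log2 ratio of pooled FPKM in high-oil over low-oil males of the 8-week comparisons (low-oil vehicle mice treated for 4 to 8 weeks), with vehicle on the x axis and TCPOBOP on the y axis; each point is 1 transporter and the dashed line marks equal ratios. Abcc2 (orange) lies lowest on both axes, at 22.4 against 52.6 FPKM with vehicle and 17.4 against 55.8 FPKM with TCPOBOP.

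Of the 40 other genes of the ABC superfamily counted here, 2 were listed at 0 throughout and 13 never reached 1 FPKM. The authors' deposited table called 2 of the 40 higher in at least 1 of the 4 TCPOBOP comparisons, 5 lower, and 33 in none. The share of all genes called in at least 1 of the 4 was not counted. In 2-week males, females, high-oil and low-oil males, 0, 1, 0 and 1 of the 40 were called higher. In the same order 2, 3, 0 and 3 were called lower. The shares over all genes were 2.52%, 3.45%, 4.08% and 3.72% higher, and 1.78%, 3.18%, 1.88% and 2.81% lower. Of the 40, those called more than once with TCPOBOP were Abcg5 and Abcg8, which together form the canalicular sterol pump. Abcg5 was at 48.2 and 22.1 FPKM (vehicle and TCPOBOP) in 2-week males, 53.5 and 24.4 in females, 35.9 and 21.9 in high-oil males, and 44.9 and 28.0 in low-oil males. Abcg8 was at 17.2 and 9.59, 15.5 and 11.0, 11.6 and 6.90, and 26.1 and 13.3 FPKM in the same order.

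The authors' deposited table called Abcg5 lower in 2-week males, females and low-oil males (log2 changes -1.20, -1.15 and -0.78), and not in high-oil males (-0.67, adjusted p = 0.226). Abcg8 fell in 2-week and low-oil males by the authors' deposited table (-0.91 and -1.08), while its values for females (-0.49, adjusted p = 0.184) and high-oil males (-0.71, adjusted p = 0.255) did not pass. The peroxisomal half-transporters are not exporters of the cell membrane. Of these, the authors' deposited table called Abcd3 (0.63, adjusted p = 0.0487) higher in females and Abcd2 (1.61, adjusted p = 0.0355) higher in low-oil males. Both values lay near the threshold, and Abcd2 was under 1 FPKM in that comparison (0.131 with vehicle and 0.429 with TCPOBOP). Abcd2, Abcd3 and the genes called lower once, Abca14, Abca8a and Abcd4, were named after their values were seen, as were the other ABC genes of the comparison between regimens, Atp7b, Atp8b1, Slc9a3r1, Pdzk1, Ezr, Lrat and the marker genes named for a single comparison.

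**Figure D4:**
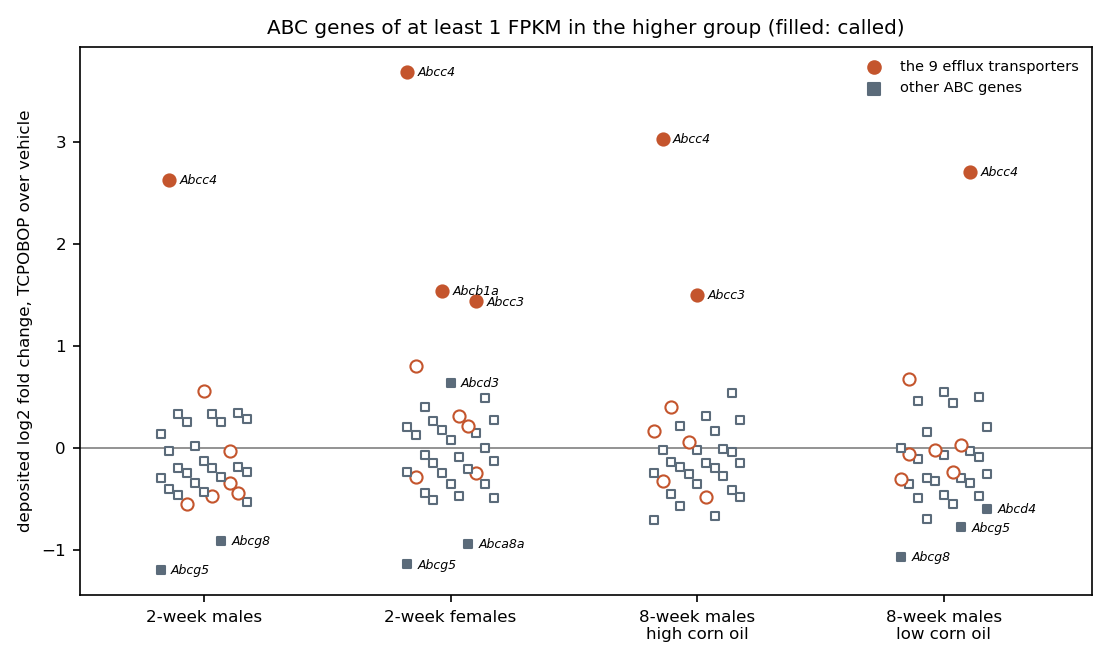
Log2 fold changes from the authors' deposited table for ABC genes of at least 1 FPKM in the higher group of each comparison, TCPOBOP over vehicle; orange circles are the 9 transporters, grey squares other ABC genes, and filled symbols are called and named. Horizontal offsets within a comparison only spread the points. Abcc4 stands highest in each comparison, and Abcg5 and Abcg8 lie lowest in 2-week and low-oil males.

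Genes that work with these pumps were counted from lists. Over all genes, 2.52%, 3.45%, 4.08% and 3.72% were called higher in 2-week males, females, high-oil and low-oil males. In the same order, 1.78%, 3.18%, 1.88% and 2.81% were called lower. Of 11 other exporters at hepatocyte membranes, none was called higher with TCPOBOP, and 2, 2, 1 and 2 were lower (2-week males, females, high-oil and low-oil males). These were Abcg5, Abcg8 and Atp8b1, a canalicular phospholipid flippase. Of 10 genes that scaffold the canalicular membrane, the authors' deposited table called 1, 2, 0 and 1 higher: Slc9a3r1 in 2-week males (0.65) and females (0.94), and Pdzk1 in females (0.61) and low-oil males (0.74), both PDZ adaptors. Ezr, which links such adaptors to actin, was lower in females in the authors' deposited table (-0.73).

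Of 14 regulators of these genes, 1, 1, 0 and 1 were called higher and 2, 1, 1 and 3 lower in the same order of comparisons. All 14 had at least 1 FPKM in the higher group each time. Of all such genes, 7.31%, 11.6%, 11.2% and 10.9% were called in either direction. Nr1i3 itself fell in all 4 comparisons of the authors' deposited table, with log2 changes of -2.32, -1.57, -2.15 and -2.57. Its pooled level was 147, 176, 115 and 171 FPKM with vehicle and 31.0, 59.7, 25.2 and 31.0 FPKM with TCPOBOP. Ahr, the dioxin receptor, rose in 2-week males, females and low-oil males (0.90, 0.68 and 1.07) in the authors' deposited table. No comparison called Nr1i2 (PXR), Nr1h4 (the bile acid receptor) or Nfe2l2 (Nrf2). Of the 8 stellate markers, whose median log2 changes were -0.06, 0.15, 0.16 and -0.03, the collagen genes Col1a1 and Col3a1 rose in all 4 comparisons by the authors' deposited table (log2 changes from 1.74 to 2.70 and from 0.89 to 1.32), with the summed stellate markers between 54.9 and 93.6 FPKM in vehicle groups and 66.6 and 107.4 FPKM in TCPOBOP groups. Lrat of the same list was called lower in low-oil males.

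For Abcc4 and Abcb1a, called in at least 3 comparisons, the genes with the most similar profile over the 8 groups were found by Pearson's r on log2(FPKM + 0.1), as a description, among 10477 genes with a mean of at least 1 FPKM. The 8 points share treatment, sex and library set among them. Abcc4 was most like Pik3cb (r = 0.994), Cobl (0.989) and Bahd1 (0.989). The authors' deposited table called Pik3cb higher each time, at log2 values (1.06, 1.93, 1.46 and 1.46) below those of Abcc4. Abcb1a was most like Nicn1 (0.986), Anxa3 (0.985) and Vsig4 (0.981), none of which was called in a TCPOBOP comparison. Vsig4 belongs to the Kupffer markers summed above, and the part of that cell type in the Abcb1a values was not tested. With a pseudocount of 1 only Anxa3 stayed among the 3 most like Abcb1a.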

How the data were processed

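Nuclear polyadenylated RNA of 28 mouse livers was sequenced by the authors. The authors used TopHat2 2.0.13, featureCounts 1.4.6-p5 and edgeR with build mm9, per the submitters' processing notes, and counted reads over gene bodies, per the file headers. How introns were treated is unknown. The authors deposited, for each gene and group, 1 pooled FPKM value. For each of 5 comparisons the authors deposited a signed fold change (a score below 0 where the numerator is lower) and an edgeR p-value, which was read as Benjamini-Hochberg adjusted. Depth per library is unknown.

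Signed folds were turned into log2 changes, and calls were taken at an adjusted p under 0.05 over all 24197 genes. Pooled FPKM were compared as ratios, with a 2-fold limit and at least 1 FPKM in the higher group for untested ratios (Python 3.11.15, pandas 2.3.3, numpy 2.4.6). The log2 conversion and the ranking of similar genes were checked on simulated data. Named genes were all 9 members, other ABC genes called the same way in at least 2 of 4 TCPOBOP comparisons, listed genes called the same way in at least 3, Nr1i3, Cyp2b10, and the 3 genes most like each member called in at least 3. Other genes named were chosen after their values were seen. Members and lists were chosen with earlier results of these data known. Alternatives were FPKM ratios with pseudocounts of 0.1 and 1, a threshold of 0.01 and a filter at 1 FPKM. One gene of the ABC superfamily outside the members is not reported here and was left out of its counts and figure.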

Additional observations from a re-analysis of the deposited data

How the results depend on the processing

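The deposited calls were counted again with an adjusted p under 0.01, with at least 2-fold as well, and for members of at least 1 FPKM in the higher group. The last left 1 of 2 members called in low-oil 8-week males and 2 of 3 in high-oil males, since Abcb1a was under 1 FPKM there, and 0.01 also left 2 of 3 in high-oil males (Abcb1a lost). The other counts did not change. Of 135 member changes recomputed from FPKM ratios, 13 moved by over 1.5-fold, all for Abcb1a, Abcb1b or Abcc4, with a pseudocount of 1 or, for Abcb1b in 2-week males, also of 0.1. No called change turned direction; 4 pairs of member and comparison that were not called did (Abcb11 in 2-week males, Abcc2 and Abcg2 in low-oil males, and Abcc3 between regimens). FPKM ratios shifted the median gene by 0.105 on a log2 basis in low-oil males and by -0.147 between regimens. No paired analysis was possible because the table holds 1 pooled value per group, and leaving out single libraries was not run for that reason.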
